A study of Mus musculus with 9 samples.

Results

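The Zfp genes are the mouse zinc finger protein genes named Zfp and a number. The table of gene levels held 364 protein-coding genes of this name among its 54532 genes, of which 22046 were protein coding. The 154 genes described here were those with a mean level of at least 2 FPKM over all libraries. FPKM is a fragment count divided by gene length and library total. Names with a letter after the number did not count, and Zfp36 was left out. The genes were chosen by their mean FPKM, so their levels are given as a description. The tissue was right ventricular myocardium of wild-type C57BL/6 mice labelled as postnatal day 7. The CsA group had fistula surgery and an injection of cyclosporin A, an inhibitor of the phosphatase calcineurin. The VO group, for volume overload, had the same surgery without the injection, and the Sham group was sham operated. Each of the 3 groups had 3 libraries. The dose, the age at tissue collection and whether libraries came from separate animals were not given in the labels, so p-values measure the spread between these libraries. With no injected Sham group, the drug and its injection were compared only on top of the fistula.

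A classic zinc finger of this family is a short protein loop in which a pair of cysteines and a pair of histidines hold a zinc ion, and strings of such loops read DNA. Many of these proteins also carry a KRAB domain, which recruits the corepressor Trim28 and through it the histone methyltransferase Setdb1, a route known for silencing transposable elements. KRAB zinc finger genes arose by repeated duplication and sit in clusters of similar copies, while zinc finger genes without the domain include old, conserved factors with varied roles in transcription, RNA processing and protein turnover.

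The members differed in the base composition of the sequence that encodes the same loop. The first finger with the common spacing (cysteines 2 residues apart, then 12 residues, then histidines 3 residues apart) is shown for 3 genes that were higher and 2 that were lower in VO than in Sham, to show how far the GC content of this stretch varied among genes past the test. Capitals mark the codons of the 2 cysteines and 2 histidines. The sequences were read from GENCODE M21 transcripts on GRCm38, 5′ to 3′ along the gene.
Zfp938: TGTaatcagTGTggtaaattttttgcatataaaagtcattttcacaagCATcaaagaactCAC
Zfp758: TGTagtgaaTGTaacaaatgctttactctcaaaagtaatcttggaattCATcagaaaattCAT
Zfp422: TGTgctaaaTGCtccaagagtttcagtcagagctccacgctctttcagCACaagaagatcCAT
Zfp768: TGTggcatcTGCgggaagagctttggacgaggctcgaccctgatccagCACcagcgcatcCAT
Zfp771: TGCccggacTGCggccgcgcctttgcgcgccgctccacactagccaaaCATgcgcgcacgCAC
They lie at chr10:82225834-82225896 (minus strand, Zfp938), chr17:22375249-22375311 (plus, Zfp758), chr6:116626806-116626868 (minus, Zfp422), chr7:127344031-127344093 (minus, Zfp768) and chr7:127253856-127253918 (plus, Zfp771), each within 1 coding exon. The GC content of these 63 bases was 30.2% in Zfp938, 28.6% in Zfp758, 46.0% in Zfp422, 60.3% in Zfp768 and 71.4% in Zfp771. Zfp422, one of the higher genes, lay between the others, and its GC content at the third base of the codons was 69.2%.

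The libraries held 12046288 to 15986747 fragments, recovered from the low values of the table. A member had 3 to 5868 fragments in a library, and the median over members of the lowest library was 175.5 fragments. VO 3 stood apart, with 11.0% of its fragments from mitochondrially encoded genes against 22.2% to 26.3% in the other 8 libraries. It had the most fragments but only 17003 genes above 0, against 19619 to 20479 in the other 8. Atrial transcripts varied within groups, the atrial light chain Myl7 having 68.3 FPKM in CsA 3, 235.1 FPKM in Sham 1, 269.7 FPKM in Sham 3 and no more than 13.2 FPKM elsewhere. One library of the Sham group, Sham 2, had 18.6 FPKM of the Y-linked Ddx3y, which was at 0 in the other 8. The ventricular cardiomyocyte markers, all 10 of which were above the filter, summed to 6905 to 9120 FPKM in CsA, 4660 to 10040 FPKM in VO and 7478 to 9175 FPKM in Sham, so markers of the labelled tissue were abundant in every group.

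Most members were expressed at a low level. The median of the 154 means was 3.64 FPKM, 106 genes were under 5 FPKM and 12 were at or above 10 FPKM. Zfp706, which in mouse embryonic stem cells is needed to leave self-renewal, was the most abundant at a mean of 43.3 FPKM. Zfp106, an RNA-binding protein required for motor neurons and muscle, had 33.6 FPKM, and Zfp91, a ubiquitin ligase of the non-canonical NF-κB route, 17.5 FPKM. Zfp207, a partner of the spindle checkpoint protein Bub3, followed at 17.1 FPKM. The genes nearest to the threshold were Zfp628 and Zfp87 inside it, at 2.02 FPKM each, and Zfp687 at 1.999 and Zfp865 at 1.99 FPKM outside it. The mean of a single group was under 2 FPKM for 6 members in CsA, 10 in VO and 17 in Sham, and 125 members had at least 2 FPKM in every group.

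**Figure D1:**
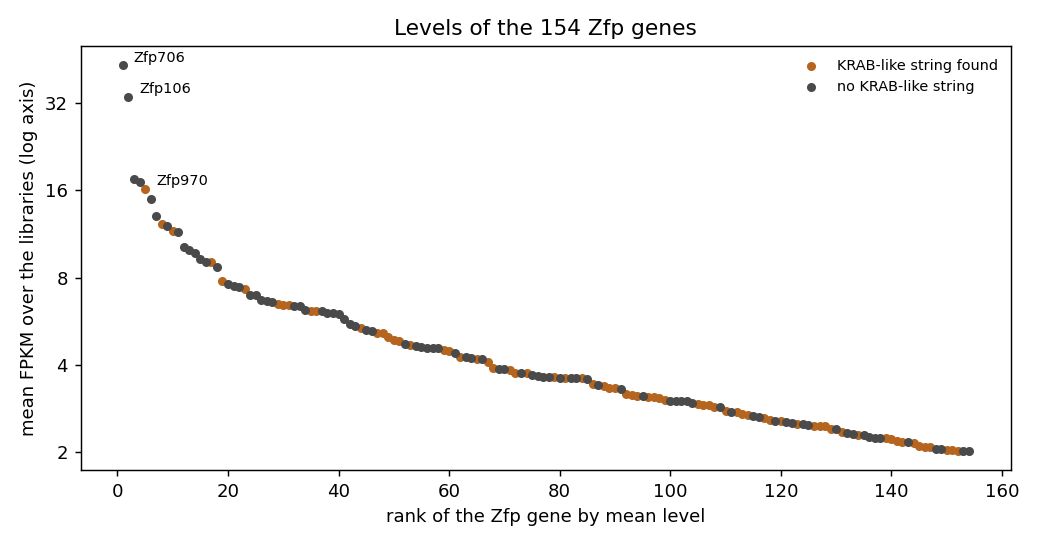
Mean FPKM over the 9 libraries (log axis) of the 154 Zfp genes in order of level, coloured by whether a KRAB-like string was found in the longest coding sequence. Zfp706 and Zfp106 stand above a long tail in which 106 genes have under 5 FPKM.

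A KRAB-like string was found in the translation of 70 members and was not found in 84. The search missed some known KRAB proteins, such as Zfp445, which acts on imprinted genes, so the second set is a set without the string and not one without the domain. The string occurred in 123 of the 210 Zfp genes under the threshold and in 0 of 41 Zbtb zinc finger proteins. Members with the string were less abundant, at a median of 3.15 FPKM against 4.24 FPKM, and 3 of them reached 10 FPKM against 9 of the others. They had a median of 11.5 fingers against 7.5. The median GC content of the longest transcript was 40.7% with the string and 48.8% without, and over the 13465 tested genes with a transcript it was 49.4%. At the third base of the codons the medians were 39.7% and 59.6%. The 300-base promoters of RefSeq (GRCm38.p6), matched for 60 members with the string and 63 without, held a median of 11.5 and 21 CG dinucleotides, against 7 over all 27025 promoters of the table. These are descriptions of the gene set, with no test.

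Near-identical copies limit some members. In all, 14 members shared over 10% of their 50-base words with transcripts of other genes, and 13 of these 14 carried the KRAB-like string. Zfp991 shared 87.0%, Zfp97 83.1%, Zfp984 57.4% and Zfp970 57.2%, so the levels of these genes are uncertain. A further 81 members shared none. Of all members, 64 overlapped another annotated gene, 26 of them on the same strand. The sources used here do not state whether the authors counted by strand, so reads of overlapping genes cannot be told apart.

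VO against Sham asked what the fistula changed. Of the 154 Zfp genes, 10 rose and 7 fell in VO at an adjusted p under 0.05 (limma on log2(FPKM + 1), adjusted over all 13477 genes tested). This is 11.0% of the members, where 4.76% of all tested genes passed, 2.04% higher and 2.72% lower. With libraries rescaled without mitochondrial genes the split was 6 higher and 10 lower, where 214 of all 13477 tested genes were higher and 541 lower. The genes with a KRAB-like string gave 6 of the 10 higher calls and 0 of the 7 lower ones (2 of the 70 were lower at an unadjusted p under 0.05). At that unadjusted p stood 65 members, 42 higher and 23 lower, where 29.3% of all tested genes did, 14% higher and 15.3% lower. Limma-voom on the recovered fragments called 27 members, 20 higher and 7 lower, 13 of the higher ones with the string, where it called 7.5% of all tested genes, 4.5% higher and 3.01% lower. The median log2 fold change was 0.34 in the 70 genes with the string, 60 of which lay above 0, and -0.03 in the 84 without it, 41 of which lay above 0. It was 0.21 over all 154 members and 0.00 over all tested genes. Among the 125 members with at least 2 FPKM in every group, 8 rose and 6 fell. Of the 131 tested Zfp genes under the level threshold, 3 rose and 0 fell (12 lower at an unadjusted p under 0.05, and 1 lower by limma-voom), with a median of 0.07. These medians are given as descriptions; no test compared the sets.

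Base composition moved with these fold changes. The transcripts of the 10 genes that rose had a GC content of 34.6% to 43.6%, and those of the 7 that fell 50.1% to 68.7%. After each library was corrected for its trend on GC, limma called 0 of all 13477 tested genes, and so 0 members. At an unadjusted p under 0.05 stood 30 members, where 21.2% of all tested genes did. Each of the 17 genes kept its sign with a smaller fold. Their adjusted p was then 0.0813 to 0.477. The count also depended on single libraries: it was 52 without VO 3 (15.1% of all tested genes) and 0 without VO 1, Sham 1, Sham 3, CsA 1 or CsA 3, and 1 without Sham 2. Except for VO 3, the share of all tested genes called in these fits is not given here. Those counts are therefore not set against a background. In bulk tissue, fewer cells of a type and less RNA per cell cannot be told apart.

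Zfp938, whose product carries the KRAB-like string, is a gene of chromosome 10 with no role stated here. It had 8.14, 6.67 and 7.28 FPKM in VO, against 3.03, 3.95 and 2.61 FPKM in Sham. Every VO library was above every Sham library (log2 1.00 ± 0.16, SE, limma adjusted p = 0.0382; 0.60 after the GC correction). Zfp758, on chromosome 17, had 7.49, 5.63 and 6.09 FPKM in VO, against 3.69, 3.17 and 2.46 FPKM in Sham. The groups did not overlap (0.85 ± 0.16, limma adjusted p = 0.0389; 0.41 after the correction). Its neighbour Zfp944, which starts beside it on the other strand, had 5.12, 4.04 and 5.25 FPKM in VO, against 2.78, 2.82 and 2.33 FPKM in Sham (0.67 ± 0.16, limma adjusted p = 0.0456). Zfp472, also on chromosome 17, stood at 3.46, 3.26 and 3.64 FPKM in VO, against 1.10, 1.15 and 2.21 FPKM in Sham, where Sham 3 was the nearest to VO (0.87 ± 0.17, limma adjusted p = 0.0396).

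The other 2 higher genes with the string, Zfp979 and Zfp984, lie close together on chromosome 4, at chr4:147611937-147642513 and chr4:147753974-147809788, both on the minus strand. Zfp979 had 5.04, 3.87 and 2.91 FPKM in VO, against 1.95, 2.27 and 1.56 FPKM in Sham (log2 0.74 ± 0.18, limma adjusted p = 0.0472). Zfp984 had 6.23, 4.47 and 5.22 FPKM in VO, against 2.92, 3.16 and 2.31 FPKM in Sham (0.73 ± 0.18, limma adjusted p = 0.0478). Neither overlapped between groups, but they shared 24.6% and 57.4% of their 50-base words with other genes, and Zfp944 shared 10.4%, so these 3 are uncertain. Among the 140 members that shared at most 10%, 7 rose and 7 fell.

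The 4 higher genes without the string include proteins known for roles other than KRAB silencing. Zfp326, whose human counterpart links RNA polymerase II to splicing of AT-rich exons, had 8.03, 5.40 and 5.14 FPKM in VO, against 1.98, 3.22 and 2.41 FPKM in Sham. VO 1 was the highest and no library overlapped (log2 1.02 ± 0.19, limma adjusted p = 0.0382; 0.66 after the GC correction). Zfp706 had 60.0, 49.5 and 65.9 FPKM in VO, against 30.8, 35.9 and 33.5 FPKM in Sham. All VO libraries were above all Sham libraries (0.78 ± 0.16, limma adjusted p = 0.0404). Zfp422, also called Krox-26 and known from tooth development, had 19.8, 19.7 and 22.3 FPKM in VO, against 10.1, 11.1 and 11.7 FPKM in Sham. Its libraries were close within each group and far apart between them (0.85 ± 0.14, limma adjusted p = 0.0382). Zfp330, a nucleolar protein in human cells, had 4.94, 4.66 and 4.98 FPKM in VO, against 3.34, 3.10 and 3.15 FPKM in Sham (0.48 ± 0.12, limma adjusted p = 0.0498). Of the 4, Zfp326 overlaps another gene on its own strand and Zfp706 one on the other strand.

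The 7 genes that fell in VO were all without the string. Their transcript GC ran from 50.1%, near the median of 49.4% over tested genes, to 68.7%. Zfp771, on chromosome 7, had 1.31, 3.67 and 4.68 FPKM in VO, against 14.6, 9.66 and 15.2 FPKM in Sham. It had the lowest fold change of all members, -1.82 ± 0.35 on the log2 scale (limma adjusted p = 0.0391), and -1.02 after the GC correction. Zfp768, about which human work describes a link to Ras signalling and cell growth, lies near it and had 2.71, 4.37 and 3.27 FPKM in VO, against 8.81, 7.47 and 7.80 FPKM in Sham. Every VO library was lower (-1.04 ± 0.19, limma adjusted p = 0.0382). Zfp628, a factor required in mouse spermatogenesis, had 0.784, 1.47 and 0.856 FPKM in VO, against 2.30, 3.0 and 3.35 FPKM in Sham (-0.94 ± 0.17, limma adjusted p = 0.0382). None of the 3 overlapped between the groups.

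Zfp651, also named Zbtb47, was the most abundant of the genes that fell, at 6.21, 10.5 and 6.95 FPKM in VO, against 15.4, 13.2 and 18.1 FPKM in Sham. The groups did not overlap, VO 2 being the nearest to Sham (-0.92 ± 0.20, limma adjusted p = 0.0408). Zfp219, a cofactor of Sox9 in cartilage cells, had 2.39, 3.60 and 3.25 FPKM in VO, against 5.75, 5.24 and 8.23 FPKM in Sham (-0.85 ± 0.18, limma adjusted p = 0.0408). Zfp362 had 2.04, 4.75 and 3.08 FPKM in VO, against 7.91, 7.28 and 7.48 FPKM in Sham (-1.05 ± 0.24, limma adjusted p = 0.0456). Zfp521, which holds back differentiation of blood, fat and neural progenitors, had 4.06, 4.03 and 3.80 FPKM in VO, against 6.88, 5.49 and 7.24 FPKM in Sham. It differed from the other 6 in that its fold change moved little with the GC correction, -0.60 ± 0.14 before (limma adjusted p = 0.0464) and -0.57 after (limma adjusted p = 0.0921). Zfp651 overlaps 1 gene and Zfp219 overlaps 3 genes on the other strand.

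**Figure D2:**
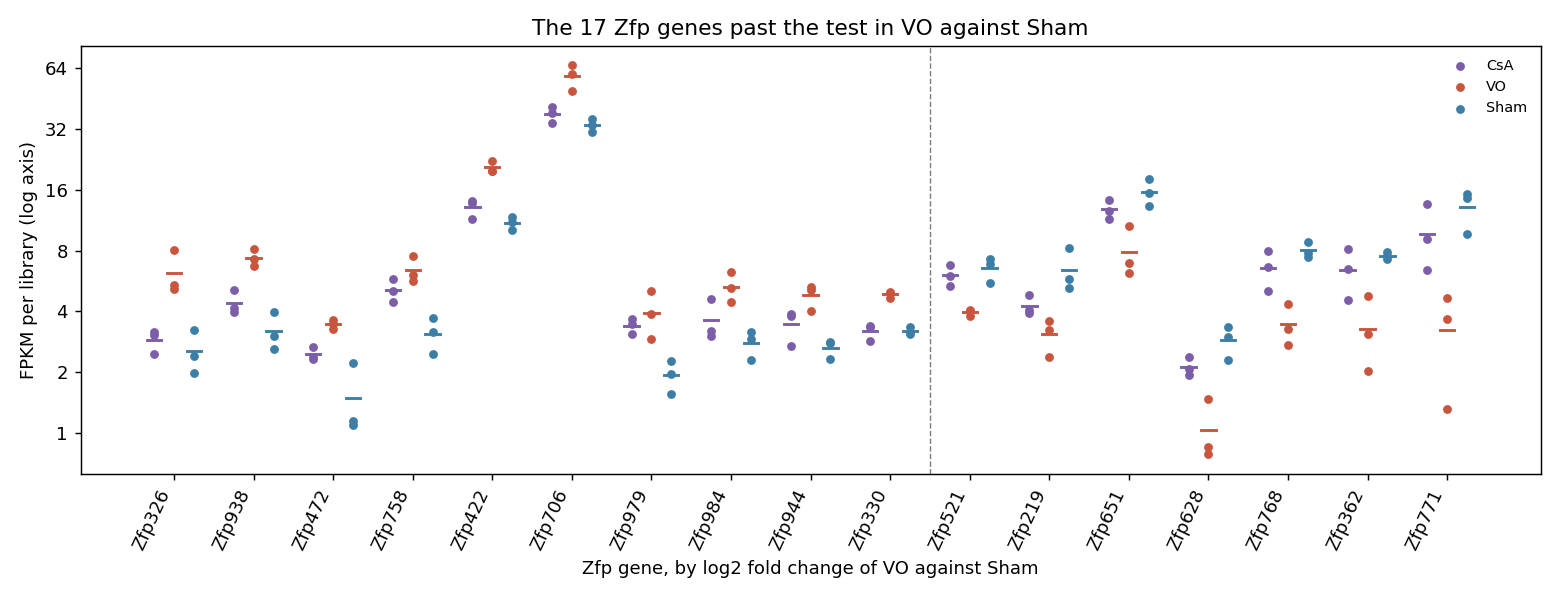
FPKM per library (log axis) of the 17 Zfp genes past the test in VO against Sham, with CsA, VO and Sham side by side and a bar at each group mean; the dashed line parts the 10 higher genes from the 7 lower ones. The VO and Sham points do not overlap in any of the 17.

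Beyond the 17, 60 further members had groups that did not overlap. In all, 77 of 154 members (50%) had every VO library on 1 side of every Sham library, 51 higher and 26 lower, where 33.1% of all tested genes did, 16.2% higher and 17% lower. Of the 70 genes with the KRAB-like string, 34 were higher and 2 lower in this way, and of the 84 without it 17 were higher and 24 lower.

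Members chosen for a known role, besides those named above, did not pass the test in VO against Sham. Zfp260, an effector of adrenergic signals in rat heart muscle cells that acts with Gata4 on the Nppa promoter, had 15.1, 11.4 and 8.52 FPKM in VO, against 7.85, 9.99 and 7.62 FPKM in Sham. VO 3 lay within the Sham range (log2 0.39 ± 0.20, limma adjusted p = 0.221). Zfp106 had 35.0, 28.4 and 20.7 FPKM in VO, against 38.6, 33.6 and 42.8 FPKM in Sham, and the groups overlapped (-0.46 ± 0.22, limma adjusted p = 0.202). Zfp207 had 22.0, 19.8 and 19.2 FPKM in VO, against 13.5, 16.8 and 14.5 FPKM in Sham, without overlap (0.42 ± 0.15, limma adjusted p = 0.106). Zfp91 differed by 0.02 ± 0.20.

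Among promoter-binding factors, log2 fold changes were 0.39 ± 0.20 for Zfp148, 0.50 ± 0.21 for Zfp281 and 0.37 ± 0.14 for the BTB protein Zfp131, and -0.23 ± 0.16 for Zfp143, an activator of small nuclear RNA genes. Zfp292 stood at 0.30 ± 0.22. Among proteins of the ribosome pathway, Zfp598, the ligase that marks collided ribosomes, was at 0.16 ± 0.14 and Zfp622, which takes part in large subunit maturation, at 0.01 ± 0.18. The SUMO ligase Zfp451 was at 0.41 ± 0.18 and Zfp638, which silences unintegrated retroviral DNA, at 0.36 ± 0.23. Of the KRAB proteins with known targets, Zfp809, which silences retroviruses, was at -0.14 ± 0.21 and Zfp568, which represses a placental transcript of Igf2, at 0.00 ± 0.38. For all of these the limma adjusted p lay above 0.05.

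The relation with GC content ran through the whole set. Across the 154 genes, which share libraries and are not independent replicates, the Spearman correlation of the VO against Sham fold change with transcript GC was -0.77, and over the 13465 tested genes with a transcript it was -0.53. It was -0.68 within the 70 genes with the string and -0.78 within the 84 without it. With the number of fingers it was 0.05 and with the mean level 0.05. In the lowest of 5 equal groups of members by GC (33.2% to 39.6%), 30 of 31 lay above 0 with a median log2 fold change of 0.58, where all tested genes in that interval had 0.37. In the highest group (52.1% to 68.7%), 3 of 31 lay above 0 with a median of -0.53, where all tested genes had -0.27. The 3 groups between had medians of 0.38, 0.25 and -0.07, against 0.31, 0.18 and 0.01 in all tested genes. Members called were 6 of 31 in the lowest group and 6 of 31 in the highest, where 8.60% and 6.72% of all tested genes in those intervals were called. The part of base composition in the fold changes was not tested beyond the correction.

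**Figure D3:**
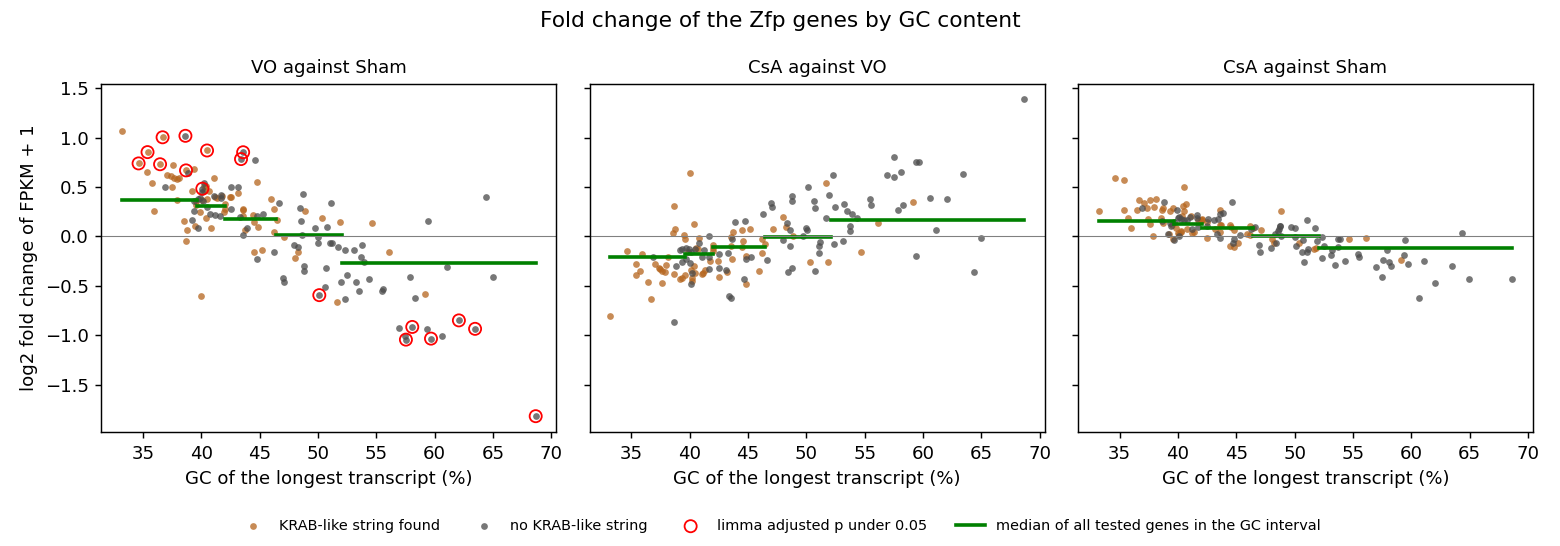
Log2 fold change of FPKM + 1 against transcript GC (%) for the 154 Zfp genes in VO against Sham, CsA against VO and CsA against Sham, coloured by the KRAB-like string; red rings mark limma adjusted p under 0.05 and green bars the median of all tested genes in 5 GC intervals. The fold change falls with GC in VO against Sham, climbs with GC in CsA against VO, and falls less steeply in CsA against Sham.

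After the GC correction the median of all members in VO against Sham was 0.03. It was 0.11 in the genes with the string, 46 of 70 above 0, and -0.03 in those without it. In the lowest of the 5 GC groups the members then had a median of 0.21 and in the highest -0.27, and the Spearman correlation with GC was -0.39. Zfp428 and Zfp598, both rich in GC and named after their values were seen, had larger folds after the correction, Zfp428 at 1.02 against 0.39 before and Zfp598 at 0.57 against 0.16 before. Zfp428 had the lowest adjusted p of the members after the correction (limma adjusted p = 0.0658).

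**Figure D4:**
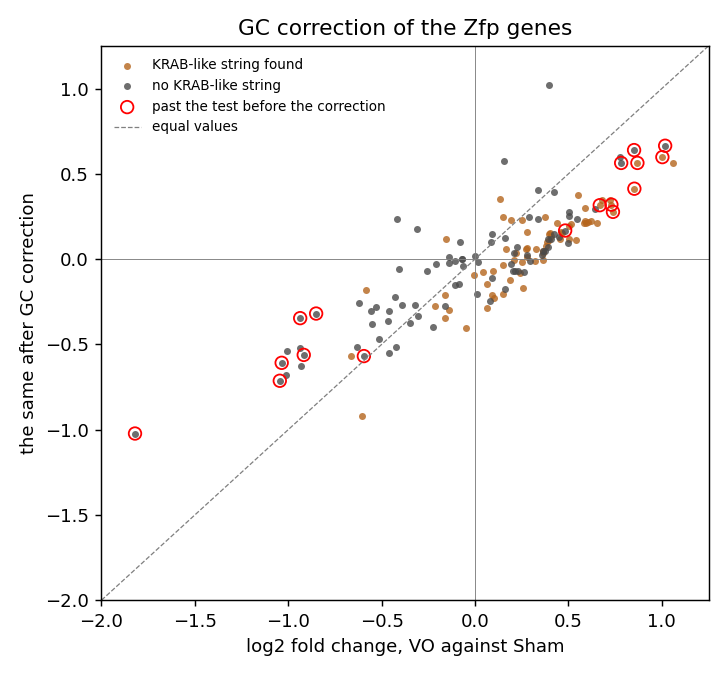
Log2 fold change of VO against Sham for the 154 Zfp genes after the GC correction (vertical) against the value before it (horizontal), coloured by the KRAB-like string; red rings mark the 17 genes past the test before the correction and the dashed line equal values. All 17 keep their sign and lie nearer to 0 than the dashed line.

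The single libraries differed within VO. The summed level of the 70 genes with the string was 301.4, 277.8 and 252.8 FPKM in CsA 1 to 3, 413.2, 305.2 and 263.3 FPKM in VO 1 to 3 and 243.7, 252.8 and 247.1 FPKM in Sham 1 to 3. VO 1 stood highest, and VO 3 lay within the range of CsA. The sum of the other 84 genes was 495.9, 515.1 and 483.3 FPKM in CsA, 576.0, 512.3 and 466.0 FPKM in VO and 496.2, 488.8 and 526.0 FPKM in Sham, so that VO held both the highest and the lowest library. All 154 took 0.421% to 0.444% of the fragments in CsA, 0.419% to 0.579% in VO and 0.415% to 0.421% in Sham. Of the fragments outside mitochondrially encoded genes they took 0.564% to 0.602% in CsA, 0.471% to 0.757% in VO and 0.541% to 0.563% in Sham. On that measure VO 3 was the lowest of all libraries and VO 1 the highest.

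Relative to each gene's mean over the libraries, the median of the genes with the string minus that of the others was 0.07, -0.08 and -0.10 in CsA, 0.36, 0.10 and 0.21 in VO and -0.20, -0.13 and -0.16 in Sham. It was above 0 in all VO libraries and below 0 in all Sham libraries. Over all tested genes cut into 10 equal groups by GC, the median of the lowest group minus that of the highest was 0.21, -0.26 and -0.11 in CsA, 0.90, 0.31 and 0.06 in VO and -0.44, -0.22 and -0.44 in Sham. Both differences had the same sign in every library, and the GC difference of VO 3 was the one nearest to 0.

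**Figure D5:**
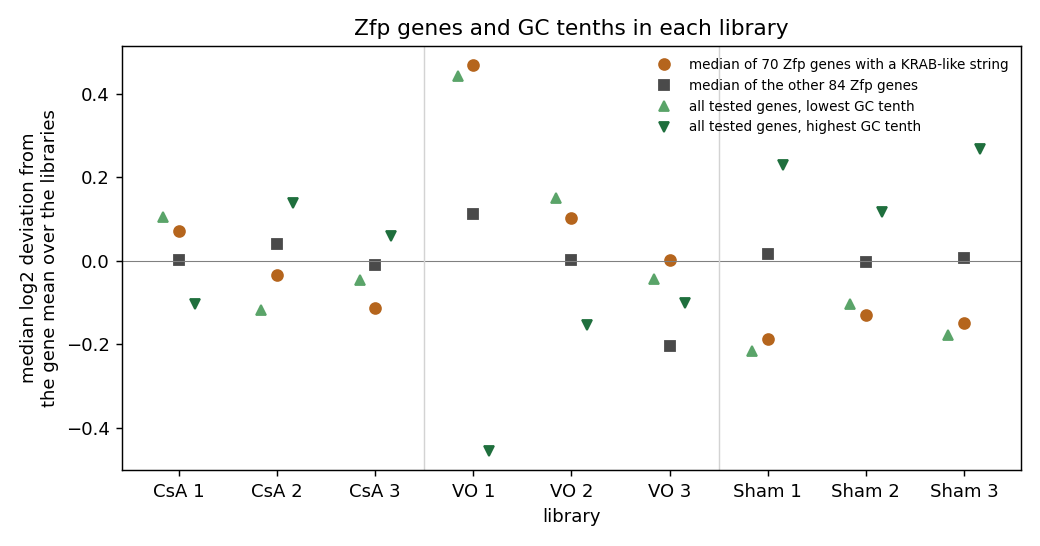
Median log2 deviation from the gene mean over 9 libraries, for the 70 Zfp genes with a KRAB-like string, the other 84 Zfp genes, and the lowest and highest of 10 GC groups of all tested genes, in each library. The genes with the string lie above the others in the 3 VO libraries and below them in the 3 Sham libraries, and in VO 1 they lie beside the lowest GC group.

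Markers of other cell types were read in the same VO against Sham fit, where 4.76% of all tested genes passed. Smooth muscle and pericyte markers summed to 688.1 to 787.6 FPKM in CsA, 534.1 to 697.5 FPKM in VO and 695.1 to 1009 FPKM in Sham, and 1 of 4 tested fell. Of the endothelial markers 2 of 6 fell, namely Plvap and Tie1. All 6 summed to 385.2 to 435.2 FPKM in CsA, 282.9 to 625.6 FPKM in VO and 358.2 to 396.9 FPKM in Sham. Log2 fold changes were -0.90 for Plvap, -0.84 for Tie1, -0.73 for Cdh5, -0.35 for Pecam1, 0.16 for Kdr and 0.59 for Fabp4. Fabp4 alone had 455.8 FPKM in VO 3, against 110.7 and 125.0 FPKM in VO 1 and VO 2. Of the fibroblast markers 1 of 6 rose, namely Lum. Their sums were 689.7 to 769.9 FPKM in CsA, 784.0 to 862.1 FPKM in VO and 608.2 to 759.0 FPKM in Sham. The log2 fold changes were 0.85 for Lum, 0.65 for Dcn, 0.30 for Tcf21, 0.02 for Col3a1, -0.37 for Pdgfra and -0.67 for Col1a1. The 5 atrial markers summed to 2.10 to 144.7 FPKM in CsA, 6.20 to 13.05 FPKM in VO and 2.43 to 585.7 FPKM in Sham. Erythroid markers ranged from 591.4 to 2038 FPKM in VO, with VO 3 the highest, against 709.9 to 894.8 FPKM in Sham, and the 4 lymphocyte markers summed to at most 1.46 FPKM in any library. After the GC correction limma called 0 of all 13477 tested genes, these markers among them. No marker of these lists was at 0 in every library, and their part in the Zfp results was not tested.

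By position, the KRAB-like genes of chromosome 17 formed the largest local group. Of 20 members on that chromosome 19 had the string, and 18 of these 19 lay above 0 in VO against Sham, with a median log2 fold change of 0.46 and 3 higher calls (Zfp472, Zfp758 and Zfp944). Chromosome 7 held 29 members. Its 11 genes with the string had a median of 0.38 and 0 limma calls (4 higher at an unadjusted p under 0.05, 1 higher by limma-voom, and 2 higher by limma without VO 3), and its 18 without the string had a median of -0.42 and 3 lower calls (Zfp628, Zfp768 and Zfp771). Over all tested genes limma called 2.04% higher and 2.72% lower, so that 0 calls among 11 genes is near the background. Without VO 3 the higher calls among the 19 genes of chromosome 17 were 10, where 941 of all 13477 tested genes were called higher. After the GC correction limma called 0 of all tested genes, and so 0 genes on either chromosome. The 19 genes of chromosome 17 with the string then had a median of 0.15, with 11 above 0 and 8 below. The 11 of chromosome 7 with the string then had a median of 0.10, with 7 above 0 and 4 below. At an unadjusted p under 0.05 there were then 3 higher among all 20 members on chromosome 17, and 2 higher and 5 lower among all 29 on chromosome 7. Of all 13477 tested genes, 1547 were higher and 1308 lower at that p, and no test compared these counts. The median transcript GC was 39.0% on chromosome 17 and 48.3% on chromosome 7. The 4 members with a SCAN-like string, a dimerisation domain (Zfp24, Zfp110, Zfp397 and Zfp449), lay between 0.16 and 0.45, and 0 passed the limma test (0 at an unadjusted p under 0.05, 0 by limma-voom, and 1 higher by limma without VO 3).

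Of the corepressors that KRAB zinc finger proteins use, 30 of a list of 31 genes were tested, and 1 rose and 1 fell in VO against Sham, where 4.76% of all tested genes passed. Trim28, the scaffold that binds the KRAB domain, had 18.6, 27.2 and 28.1 FPKM in VO, against 20.5, 23.3 and 20.6 FPKM in Sham (log2 0.17 ± 0.19, limma adjusted p = 0.589), and 0.59 after the GC correction. Setdb1, the methyltransferase that it recruits, was at 0.22 ± 0.16 (limma adjusted p = 0.408). Trim24, a relative of Trim28 that reads histone marks, had 10.7, 10.2 and 12.8 FPKM in VO, against 7.10, 6.95 and 7.21 FPKM in Sham (0.59 ± 0.13, limma adjusted p = 0.0408), and 0.57 after the correction (limma adjusted p = 0.0834). Mta1, a subunit of the NuRD deacetylase complex, fell to 7.16, 12.0 and 8.80 FPKM in VO, against 17.6, 15.5 and 16.8 FPKM in Sham (-0.80 ± 0.18, limma adjusted p = 0.0454), and stood at -0.47 after the correction (limma adjusted p = 0.135). Neither call held after the correction, where limma called 0 of all 13477 tested genes. The list's median was 0.19, and 20 of 30 lay above 0, beside 0.00 for all tested genes.

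Other zinc finger families at the same level threshold were tested in the same limma fit. Of 26 Zbtb genes 0 rose and 2 fell (1 higher and 5 lower at an unadjusted p under 0.05), and limma-voom called 1 higher and 2 lower. Of 16 Klf and Sp genes 0 rose and 3 fell (2 higher and 6 lower unadjusted), and limma-voom called 0 higher and 4 lower. Of 13 Zfp genes with a letter after the number 0 rose and 1 fell (3 higher and 1 lower unadjusted), with the same counts by limma-voom. Of 8 Zkscan and Zscan genes 0 passed by limma or limma-voom (1 lower unadjusted). Without VO 3 limma called 3 Zbtb genes, 1 Klf or Sp gene and 1 lettered Zfp gene higher. That fit called 941 of all 13477 tested genes higher. In the fit on all libraries 2.04% of all tested genes were called higher and 2.72% lower. There, 0 higher calls in families of this size is near the background. The median log2 fold change was -0.06 in the Zbtb genes, -0.26 in the Klf and Sp genes, -0.03 in the Zfp genes with a letter and 0.09 in the Zkscan and Zscan genes. No test compared these families with the 154 genes.

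CsA against VO asked what the injection of cyclosporin A changed after the same surgery. The VO group had no injection, so the drug and the act of injecting it cannot be told apart. No Zfp gene passed the test: limma called 0 of 154 (33 at an unadjusted p under 0.05, 11 higher and 22 lower), and limma-voom called 0 (47 unadjusted). Over all tested genes 0% were called and 16.5% had an unadjusted p under 0.05, 8.64% higher and 7.82% lower. With libraries rescaled without mitochondrial genes the members at an unadjusted p under 0.05 were 20 higher and 8 lower. Of all 13477 tested genes, 1723 were then higher and 593 lower, so the balance moved towards higher in both. The median was then -0.03 over the 154 genes and 0.08 over all tested genes. The median log2 fold change was -0.12 over the 154 genes, -0.21 in those with the KRAB-like string and -0.02 in the others, beside 0.00 in all tested genes. The median over the 154 was 0.01 without VO 1. After the GC correction it was -0.001, with 77 of 154 above 0. The genes with the string then had -0.06 and the others 0.05. For 45 members (29.2%) the libraries of CsA and VO did not overlap, 16 higher and 29 lower, where 21.2% of all tested genes did not, 10.9% higher and 10.3% lower.

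The members with the lowest p in CsA against VO were among the 17 above, and both comparisons share the VO libraries, so the values are set side by side without a count of matching signs. Zfp326 had 3.17, 2.45 and 3.07 FPKM in CsA, against 8.03, 5.40 and 5.14 FPKM in VO, without overlap (log2 -0.87 ± 0.19, limma adjusted p = 0.204). Zfp422 had 14.1, 11.4 and 13.8 FPKM in CsA, below the VO libraries at 19.7 to 22.3 FPKM (-0.62 ± 0.14, limma adjusted p = 0.204). The CsA libraries also lay below those of VO in Zfp330 (-0.48 ± 0.12), Zfp938 (-0.63 ± 0.16) and Zfp706 (-0.60 ± 0.16), with limma adjusted p of 0.204 to 0.211.

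In the other direction, Zfp771 had 6.43, 13.5 and 9.14 FPKM in CsA, against 1.31, 3.67 and 4.68 FPKM in VO, where the CsA libraries were all higher (1.39 ± 0.35, limma adjusted p = 0.204). Zfp768 had 5.02, 7.95 and 6.61 FPKM in CsA, all above the 2.71 to 4.37 FPKM of VO (0.76 ± 0.19, limma adjusted p = 0.204). Zfp628 was at 0.63 ± 0.17, Zfp521 at 0.50 ± 0.14 and Zfp362 at 0.81 ± 0.24, with limma adjusted p of 0.211 to 0.219. None of these passed the test. The Spearman correlation of this fold change with GC was 0.63 across the members and 0.40 across the tested genes with a transcript. In the 5 GC groups, low to high, the members' medians were -0.30, -0.21, -0.17, 0.06 and 0.32. All tested genes in those intervals had -0.21, -0.18, -0.11, -0.01 and 0.16. The corepressor list had 0 calls (limma; 4 of 30 at an unadjusted p under 0.05) and a median of -0.09.

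CsA against Sham compared injected fistula mice with sham-operated ones. Limma called 0 of 154 members (5 at an unadjusted p under 0.05, 4 higher and 1 lower), as did limma-voom (4 unadjusted), with 0% called and 1.48% at an unadjusted p under 0.05 over all tested genes, 0.594% higher and 0.89% lower. The groups did not overlap for 19 members (12.3%), 14 higher and 5 lower, where 9.74% of all tested genes did not, 4.8% higher and 4.94% lower. The median was 0.07, and 0.11 in the genes with the KRAB-like string, 57 of 70 above 0. Over all tested genes it was 0.00, with 50.3% above 0. After the GC correction the median was -0.002 over the members, 77 of 154 above 0. It was then 0.03 in the genes with the string, 40 of 70 above 0. Zfp758 had 5.05, 5.76 and 4.46 FPKM in CsA, against 3.69, 3.17 and 2.46 FPKM in Sham (log2 0.57 ± 0.16, unadjusted p = 0.00599 and limma adjusted p = 1). Zfp979 was at 0.59 ± 0.18, Zfp472 at 0.50 ± 0.17, Zfp938 at 0.37 ± 0.16 and Zfp62 at 0.35 ± 0.18. At the low end stood Zfp219 at -0.47 ± 0.18, Zfp703 at -0.62 ± 0.31, Zfp574 at -0.30 ± 0.16, Zfp691 at -0.29 ± 0.16 and Zfp628 at -0.30 ± 0.17. All had a limma adjusted p of 1. In the 5 GC groups, low to high, the members' medians were 0.26, 0.17, 0.09, -0.02 and -0.22. All tested genes in those intervals had 0.15, 0.13, 0.08, 0.00 and -0.11. The Spearman correlation of this fold change with GC was -0.78 across the members and -0.53 across the tested genes with a transcript. Zfp706, the most abundant member, was at 0.18 ± 0.16, Zfp106 at -0.16 ± 0.23 and Zfp91 at 0.08 ± 0.20.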

How the data were processed

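The authors deposited 1 table of FPKM per gene for the 9 libraries, with gene coordinates on GRCm38, names and lengths. The submitters' processing notes name the aligner HISAT2 (2.0.5) and the counter featureCounts (1.5.0-p3), besides StringTie (1.3.3b), with no order. Values were transformed to log2(FPKM + 1), which understates the change of low genes, and the 13477 genes averaging 0.5 FPKM or more entered 1 fit over the 3 groups in limma 3.58.1 (R 4.3.3) with a mean-variance trend, two-sided, with Benjamini-Hochberg adjustment. The low values were whole fragments within 0.1 for 99.988% to 100% of values in each library, and limma-voom on these recovered fragments was an alternative. GC content came from the longest GENCODE M21 transcript (99.8% of gene identifiers matched), and the correction removed a loess trend (span 0.3) from each library. The steps were tested on simulated data. Strings in the translations were searched with regular expressions, a finger as cysteines 2 to 4 residues apart, 12 residues, and histidines 3 to 5 apart. The Zfp genes, lists and alternatives were chosen with earlier results of these data known. Genes named per comparison were those past the test, up to 10 in each direction, filled up to 5 by the smallest p, with the 3 most abundant members and a list of members with known roles. Protein sequences were not used here.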

Additional observations from a re-analysis of the deposited data

How the results depend on the processing

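Of the 24 other settings, the count of 17 Zfp genes in VO against Sham (10 higher, 7 lower) was 0 when low values were not filtered, with only the compared groups in the fit, with the GC correction (also without VO 3, added after the data were seen) and with CsA 3, Sham 1 and Sham 3 left out for their Myl7 level (Sham 2 alone is then assumed to vary like the other groups); unadjusted p under 0.05 then held for 63, 60, 30, 30 and 8 members, in that order. It was 27 with limma-voom, 20 higher and 7 lower, 16 of the 17 among them, and 16 with libraries rescaled without mitochondrial genes, 6 of them higher. That rescaling moved the median of all tested genes to -0.05, with 214 of 13477 called higher and 541 lower. With the GC correction limma called 0 of all 13477 tested genes. For the other settings in which 0 members were called, the share over all tested genes is not given here. Leaving out 1 library gave 0 to 52 calls, 0 to 39 higher and 0 to 13 lower; without VO 3 all 17 remained, with 15.1% of all tested genes called. Each of the 17 kept its sign in all 24 settings and passed in 4 to 12 of them. The median over the KRAB-like genes ranged from 0.11 to 0.53, and that over all members from 0.03 to 0.34. CsA against VO and CsA against Sham had 0 calls by limma or limma-voom in every setting, with 11 to 56 and 1 to 55 members at an unadjusted p under 0.05. For most of these settings the share of all tested genes at that p is not given here. Where it was counted, that share also moved between settings. These ranges are therefore not set against a background and do not single out the members. Replicate numbers did not pair libraries: same-numbered libraries of different groups had correlations of deviations from -0.40 to 0.24, and the fit with replicate number as a block called 0 members (62 unadjusted), or 0 with the GC correction (23). Where the cause of a change is not built into the setting, the cause was not tested. A member had as few as 3 fragments in a library, and small changes of such genes were not detectable at this depth.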

Other observations

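Single members stood far from their group in VO 3, as values chosen after they were seen. Zfp871, a gene of chromosome 17 with the KRAB-like string, had 11.8 and 6.30 FPKM in VO 1 and VO 2 but 0.248 FPKM in VO 3, against 6.68, 5.82 and 6.79 FPKM in Sham. Zfp568 had 7.62 and 7.19 FPKM in VO 1 and VO 2 and 1.97 FPKM in VO 3, against 4.05, 6.50 and 4.59 FPKM in Sham. Zfp931, which had the lowest transcript GC of all members (33.2%) and shares 16.7% of its 50-base words with other genes, had 8.24, 4.72 and 7.06 FPKM in VO, against 1.97, 3.10 and 2.85 FPKM in Sham, the highest log2 fold change of the members (1.06 ± 0.27), and missed the threshold (limma adjusted p = 0.0536).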
